A study of Sus scrofa with 9 samples.

Results

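HSP70.2 and HSPB1 are stress-inducible chaperones, and their transcripts were followed in pig whole blood around a single oral dose of azide, together with every other probe described as a heat shock protein. Both genes were picked for their high values at 6 h, so their levels are given as a description with no test. The set holds each non-control probe whose gene name is HSP70.2 or HSPB1, or whose description contains "heat shock" and not "factor". It has 23 probes for 16 genes or unnamed transcripts, of the 43603 non-control probes on the array, with 2 probes for HSP70.2 and 1 for HSPB1. Of the 23, 16 probes (10 genes or transcripts) entered the tests among 19783 probes, since every array of some time had them well above background. Another 3 were above background on no array, and the other 4 on some arrays only. A probe that is bright at 1 time alone passes such a filter through that time, so counts over the 16 describe detected probes and not the whole family.

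The animals were males of the Clawn miniature breed, kept free of specified pathogens, and were dosed by mouth with 300 µg/kg of azide, a poison of the mitochondrial respiratory chain. Blood was taken before feeding (0 h, the controls), 6 h after the dose and 24 h after it, with 3 arrays per time. Their age stands as 7 months in one label and 7 weeks in another. Whether a replicate number marks an animal is not stated, so the p-values rest on a spread between samples that may be technical. No pigs without azide were sampled at 6 h or 24 h, and each time lay on a slide and scan of its own, so time, feeding, slide and dose cannot be told apart. Transcripts of blood cells were present: CD3D of T cells, CD14 of monocytes, NCF1 of neutrophils and the haemoglobin epsilon gene HBE1. The brightest tested probe of each had a log2 level, relative to the 75th percentile, of 2.46 or more on every array. Other tested probes of CD3D and CD14 read lower, down to -2.83 and -1.02. Between 39.9% and 56.6% of the 43803 spots per array were well above background, with the highest share on replicate 3 at 24 h. The log2 75th percentile before scaling was 6.78 to 7.70 at 24 h, against 5.80 to 6.57 on the other arrays. The 3 arrays per time limit the precision of every value.

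Heat shock proteins are chaperones: they hold unfolded proteins, help them fold and keep them from clumping. In resting cells the constitutive members do this work, and under heat, oxidants or other proteotoxic stress heat shock factor 1 switches on the inducible cytosolic members. HSP70.2 is an inducible pig HSP70 that folds proteins in cycles of ATP hydrolysis, and HSPB1 (HSP27) is a small heat shock protein that binds unfolded proteins without ATP and passes them to the HSP70 machinery. Chaperones of the mitochondrion and the endoplasmic reticulum serve their own compartments and are partly under other controls.

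The oligonucleotides on the array define what was measured, and those of the inducible genes on which the results turn are shown here as the array files give them. They are the 7 probes for HSP70.2, HSPB1, HSP90AA1 and HSPH1 with at least 1 reading frame free of stop codons. Each is 60 bases long, and the capitals mark the longest run of letters that the probe shares with any other probe on the array, on either strand.
HSP70.2, brighter probe: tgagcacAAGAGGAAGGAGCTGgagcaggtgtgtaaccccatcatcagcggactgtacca
HSP70.2, dimmer probe: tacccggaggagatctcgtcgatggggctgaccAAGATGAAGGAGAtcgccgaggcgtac
HSPB1: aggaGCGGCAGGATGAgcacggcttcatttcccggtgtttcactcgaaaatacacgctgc
HSP90AA1, brightest probe: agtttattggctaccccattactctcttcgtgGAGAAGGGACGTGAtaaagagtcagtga
HSP90AA1, probe B: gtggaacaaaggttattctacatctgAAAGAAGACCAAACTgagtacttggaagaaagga
HSP90AA1, probe C: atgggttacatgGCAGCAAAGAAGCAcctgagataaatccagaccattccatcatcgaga
HSPH1, dimmer probe: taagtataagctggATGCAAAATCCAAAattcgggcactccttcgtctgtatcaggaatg
The shared runs were 12 to 15 bases long. The 2 HSP70.2 probes differ in base composition, with 55% GC in the brighter and 60% in the dimmer one, against 38.33% to 45% in the 3 HSP90AA1 probes. The RefSeq gene table lists HSPA1A and HSPA1B as synonyms of the pig gene HSP70.2, so transcripts of near-identical copies could not be told apart from it.

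HSP70.2 was high on all 3 arrays at 6 h and close to its starting level again at 24 h. Levels are log2 processed signals minus the 75th percentile of the same array, so that 0 stands for that percentile. On its brighter probe the level was 0.58, 1.53 and 1.76 before feeding, 5.73, 3.66 and 8.06 at 6 h, and 1.34, 2.71 and 2.19 at 24 h. The lowest array at 6 h lay 1.90 above the highest before feeding and 0.95 above the highest at 24 h. The group means were 1.29 ± 0.63 before feeding, 5.82 ± 2.20 at 6 h and 2.08 ± 0.69 at 24 h (SD, n = 3 each). The difference of means was 4.53 ± 0.88 (SE) at 6 h, or 23.0-fold, and 0.79 ± 0.88 at 24 h, and 24 h minus 6 h was -3.73. In the order of its levels 6 h came first, and 24 h and 0 h overlapped.

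The dimmer HSP70.2 probe did not enter the tests, since it was well above background on 0 of 3 arrays before feeding, 2 of 3 at 6 h and 1 of 3 at 24 h. Its level was -3.45, -4.06 and -4.81 before feeding, 0.52, -2.68 and 3.07 at 6 h, and -3.01, -4.14 and -2.60 at 24 h. It too was highest on replicate 3 and lowest on replicate 2 among the 6 h arrays. The arrays before feeding give only an upper limit. With replicate 2 at 6 h, itself not above background, taken at its measured signal, the signal was at least 8.67-fold higher at 6 h than before feeding. Without replicate 3 at 6 h the bound was 3.32-fold.

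HSPB1 showed a smaller difference than HSP70.2, with the same order of replicates among the 6 h arrays. Its level was 3.58, 5.27 and 4.71 before feeding, 7.05, 5.29 and 8.58 at 6 h, and 4.20, 4.68 and 4.20 at 24 h. Replicate 2 at 6 h stood only 0.021 above the highest array before feeding, so the groups are separated by replicates 1 and 3. The means were 4.52 ± 0.86 before feeding, 6.97 ± 1.65 at 6 h and 4.36 ± 0.28 at 24 h (SD, n = 3 each). The difference was 2.46 ± 0.70 (SE) at 6 h, or 5.48-fold, and -0.16 ± 0.70 at 24 h, where the arrays overlapped those before feeding. Without replicate 3 at 6 h it was 1.65 at 6 h. The other small heat shock genes on the array, HSPB7 and the lens and muscle chaperone CRYAB, were not tested because of low signal.

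**Figure D1:**
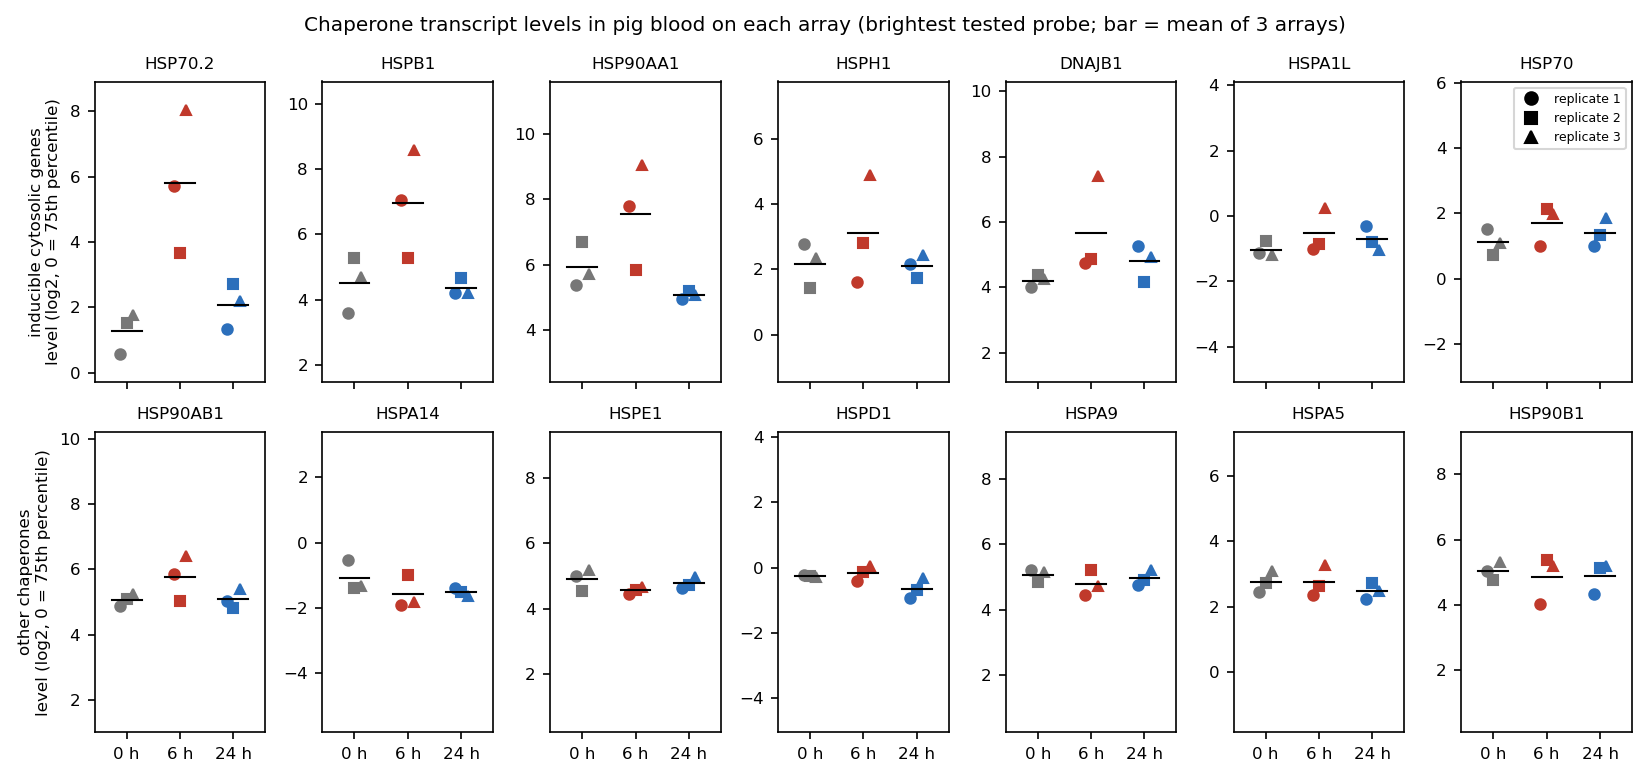
Level of 14 chaperone transcripts on each array, on the log2 scale with the array's 75th percentile at 0, against time after azide; markers are replicates, the bar is the mean of 3 arrays, and all panels span the same number of log2 units around different centres. HSP70.2 at 6 h sits between 3.66 and 8.06, above all arrays at 0 h and 24 h, while HSPE1 stays between 4.46 and 5.17 at all times.

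The other genes counted as inducible cytosolic ones had higher means at 6 h, but none of their probes passed the adjusted threshold of 0.05. HSP90AA1 encodes the inducible form of cytosolic HSP90, which finishes the folding of kinases and steroid receptors, and has 4 probes. Its brightest probe measured 5.38, 6.70 and 5.70 before feeding, 7.78, 5.82 and 9.05 at 6 h, and 4.96, 5.19 and 5.08 at 24 h. Replicates 1 and 3 at 6 h were above every array before feeding, and replicate 2 lay within their range. The difference at 6 h was 1.63 ± 0.67 (SE, n = 3 per group), with a limma adjusted p of 0.167, and 0.88 without replicate 3 at 6 h. Over the 4 probes it ran between 1.63 and 2.12, with limma adjusted p-values of 0.087 to 0.167. Probe C is the one whose 6 h arrays overlapped neither other time, with 3.91, 4.04 and 4.27 before feeding, 6.17, 4.73 and 7.66 at 6 h, and 4.18, 4.11 and 4.69 at 24 h. Probes of 1 gene share its transcripts and are not separate evidence.

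At 24 h HSP90AA1 was near or below its starting level, depending on the probe. On the brightest probe all 3 arrays at 24 h lay below those before feeding, with a difference of -0.85 ± 0.67 (limma adjusted p = 0.588), while probe C differed by 0.25 (limma adjusted p = 0.874). Scaled on spike-in controls the difference of the brightest probe turned to 0.15, where the median of all tested probes was 0.99 for 24 h. Between 24 h and 6 h the 4 probes differed by -2.48 to -1.69.

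**Figure D2:**
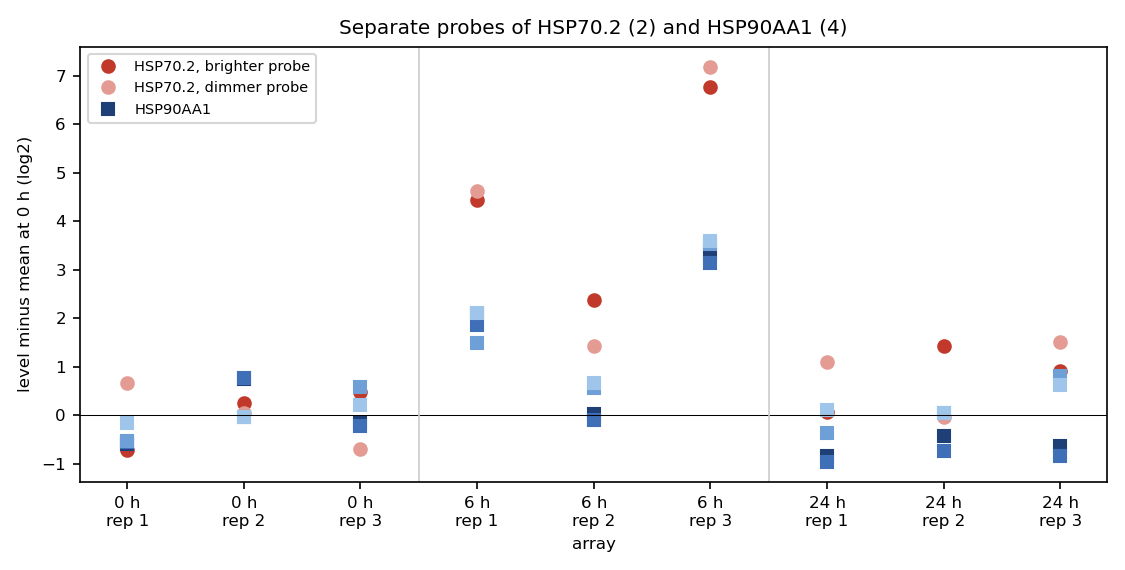
Level of the 2 HSP70.2 probes and the 4 HSP90AA1 probes on each array, as the log2 difference from that probe's mean before feeding. Both HSP70.2 probes and all HSP90AA1 probes are highest on replicate 3 at 6 h, and the HSP90AA1 probes on replicate 2 at 6 h lie among the arrays taken before feeding or just above them.

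HSPH1 (HSP105) is a nucleotide exchange factor that lets HSP70 release its client, and its 2 probes gave different pictures. The brighter probe read 2.77, 1.41 and 2.34 before feeding, 1.61, 2.80 and 4.88 at 6 h, and 2.16, 1.74 and 2.45 at 24 h. Only replicate 3 at 6 h was clearly outside the range of the other times, and the difference of 0.92 ± 0.69 (SE) had a limma adjusted p of 0.417. Without that array it was 0.028. The dimmer probe read -2.91, -1.80 and -2.47 before feeding, -1.70, -1.92 and 0.82 at 6 h, and -2.99, -2.75 and -2.98 at 24 h. Its difference at 6 h was 1.46 ± 0.62 (limma adjusted p = 0.177), and the arrays at 24 h and 6 h did not overlap.

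DNAJB1 is the HSP40 cochaperone that brings clients to HSP70 and starts its ATP cycle. It is no member of the probe set, as its description does not contain the words, and stands in the fixed list of inducible genes. Its brighter tested probe read 3.995, 4.38 and 4.24 before feeding, 4.75, 4.88 and 7.40 at 6 h, and 5.28, 4.17 and 4.94 at 24 h. The difference at 6 h was 1.47 ± 0.62 (SE) with a limma adjusted p of 0.173, and 0.61 without replicate 3 at 6 h. The second tested probe of DNAJB1 read 5.46 on that array, against 3.06 and 3.01 on the other two arrays at 6 h.

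The other HSP70 family members of the inducible list had smaller differences. HSPA1L, an HSP70 best known from human and mouse testis whose gene neighbours HSP70.2 in the RefSeq table, read -1.13, -0.78 and -1.21 before feeding, -0.998, -0.85 and 0.24 at 6 h, and -0.31, -0.79 and -1.03 at 24 h. The difference of 0.50 ± 0.37 (SE) at 6 h had a limma adjusted p of 0.403, and without replicate 3 it was 0.12. A probe described only as pig mRNA for heat shock protein 70 differed by 0.58 ± 0.38 (limma adjusted p = 0.346), with 1.00, 2.13 and 1.97 at 6 h against 1.51, 0.74 and 1.097 before feeding. This HSP70 probe was lowest on replicate 1 at 6 h, an array on which HSP70.2 was high. At 24 h the differences were 0.33 for HSPA1L and 0.29 for the HSP70 probe.

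Constitutive cytosolic chaperones were covered by few probes. HSP90AB1, the constitutive HSP90, read 4.89, 5.09 and 5.25 before feeding, 5.84, 5.02 and 6.39 at 6 h, and 5.03, 4.82 and 5.41 at 24 h on its brighter probe. Its difference at 6 h was 0.68 ± 0.36 (SE; limma adjusted p = 0.258), or 0.36 without replicate 3, again with replicates 3 and 1 above replicate 2, and its second probe differed by 0.28. HSPA14, a ribosome-associated HSP70 relative, differed by -0.48 ± 0.34 at 6 h (limma adjusted p = 0.392) and was lower on replicates 1 and 3 than on replicate 2. HSPA4 and HSPA4L, relatives of HSPH1, were not tested because of low signal.

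The chaperones of the mitochondrion stayed within narrow bounds. HSPE1 is the lid of the mitochondrial chaperonin and has 3 probes in the set. The brightest read 4.999, 4.55 and 5.17 before feeding, 4.46, 4.58 and 4.68 at 6 h, and 4.63, 4.73 and 4.97 at 24 h. Its groups overlapped at every pair of times, and the 3 probes differed at 6 h by -0.40 to -0.32, with limma adjusted p-values of 0.393 to 0.484. HSPD1, the barrel of the same chaperonin, differed by 0.083 ± 0.27 (SE) at 6 h (limma adjusted p = 0.873). At 24 h HSPD1 differed by -0.39 (limma adjusted p = 0.538), and its arrays did not overlap those before feeding. HSPA9, the mitochondrial HSP70, differed by -0.27 ± 0.29 at 6 h (limma adjusted p = 0.573).

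The tested chaperones of the endoplasmic reticulum overlapped between times. HSP90B1 (GRP94), the HSP90 of that compartment, differed by -0.18 ± 0.40 (SE) at 6 h (limma adjusted p = 0.799), and HSPA5 (BiP), its HSP70, by -0.0028 ± 0.32 (limma adjusted p = 0.996). HSP90B1 was low on replicate 1 at 6 h, at 4.03, against 5.38 and 5.19 on the others, and without that array its difference at 6 h was 0.24. The probe for SERPINH1, a collagen chaperone, was not tested because of low signal.

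The rest of the probe set has no gene symbol here. A transcript named TC264261, described only by likeness to a subunit of a trypanosome heat shock protease, read 2.35, 2.71 and 2.68 before feeding, 3.22, 2.91 and 3.70 at 6 h, and 2.05, 2.31 and 2.37 at 24 h. Its difference at 6 h was 0.69 ± 0.29 (SE; limma adjusted p = 0.167), with no overlap against 0 h or 24 h. TC257537, likened to a nematode heat shock protein, differed by -0.38 ± 0.41 at 6 h (limma adjusted p = 0.584).

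**Figure D3:**
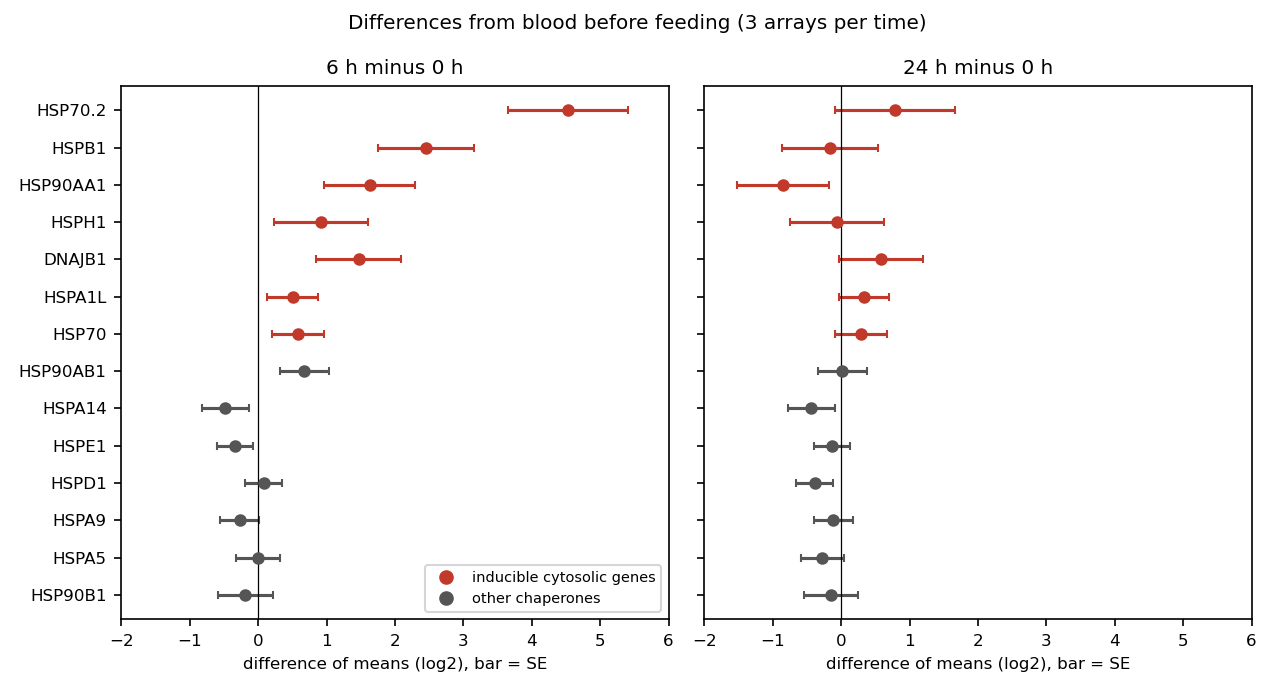
Difference of group means from blood before feeding on the log2 scale, with limma standard errors, for the brightest tested probe of each gene at 6 h (left) and 24 h (right). HSP70.2 lies at 4.53 and HSPB1 at 2.46 at 6 h, the other 5 genes counted as inducible between 0.50 and 1.63, and the other 7 chaperones, including the mitochondrial HSPE1 and HSPD1, between -0.48 and 0.68.

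Over all 16 tested probes, 0 passed the adjusted threshold in limma at 6 h, where 5 of 19783 probes passed (0.0253%). At an unadjusted p under 0.05 there were 8 of the 16, against 25.5% of all tested probes; the 8 were higher at 6 h, where 14.7% of all probes were higher, and 0 were lower, against 10.9%. HSP70.2 and HSPB1 were chosen by these values, and nothing is read from their share; without them the count was 6 of 14, of which 4 are probes of HSP90AA1. Arrays at 6 h did not overlap those before feeding for 4 of 16 probes, where the share over all probes was 26.6% in either direction and 16.0% higher, and the 4 were those of HSP70.2, HSPB1, TC264261 and probe C of HSP90AA1. Without the 2 chosen genes this was 2 of 14 (14.3%), a share near that of all probes. The median difference was 0.81 over the 16 probes and 0.64 without HSP70.2 and HSPB1, against 0.05 over all tested probes. Replicate 2 at 6 h weighed on the count: without it 6 of the 16 probes passed the adjusted threshold, those of HSP70.2, HSPB1 and HSP90AA1, where 12.1% of all tested probes passed. Without the 2 chosen genes these were 4 of 14, all of them probes of HSP90AA1.

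At 24 h against before feeding, 0 of 16 probes passed in limma, as did 0 of 19783 over the array, and 0 of 16 had an unadjusted p under 0.05, against 13.9% of all tested probes. Arrays did not overlap for 1 of 16, the brightest probe of HSP90AA1, which was lower, against 26.5% over the array in either direction and 19.0% lower. The median difference was -0.12, against -0.01 over all tested probes.

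Between 24 h and 6 h, 0 of 16 passed in limma, with 0 of 19783 over the array, and 8 had an unadjusted p under 0.05, against 21.6% of all tested probes. All 8 were lower at 24 h, where 13.6% of all probes were lower. Without HSP70.2 and HSPB1 it was 6 of 14. The groups did not overlap for 7 of 16, each lower at 24 h, against 26.5% of all tested probes in either direction and 16.5% lower. With the 2 chosen genes left out it was 5 of 14 (35.7%), most of them probes of HSP90AA1. This comparison shares its 6 h arrays with the first one, so the counts are not separate evidence. Without replicate 2 at 6 h, 7 of the 16 passed, and 5 of 14 without HSP70.2 and HSPB1, against 8.93% of all tested probes.

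The mean over inducible genes separated from that over 2 constitutive genes at 6 h, by an amount that differed between arrays. The inducible mean was taken over 7 genes (HSP70.2, HSPB1, HSP90AA1, HSPH1, DNAJB1, HSPA1L and the HSP70 probe) and the constitutive mean over 2 (HSP90AB1 and HSPA14), each gene relative to its own mean over the 9 arrays. HSPA1L and the HSP70 probe count as inducible by the fixed list, and whether heat induces them was not checked here. The HSP70 probe could not be placed in a gene. HSPE1 and HSPD1 also stand in the fixed list of inducible genes, but as mitochondrial chaperones they were counted in neither mean. Inducible minus constitutive was -1.18, -0.54 and -0.58 before feeding, 0.67, 0.11 and 2.21 at 6 h, and -0.41, -0.07 and -0.20 at 24 h. Replicate 2 at 6 h, at 0.11, stood close to the highest array at 24 h, at -0.07. The gap between the classes was 1.76 wider at 6 h than before feeding and 0.54 wider at 24 h. The constitutive mean differed by -0.0027 at 6 h, but its 2 genes went in opposite directions. HSP90AB1 differed by 0.68 and 0.28 on its 2 probes and HSPA14 by -0.48. On its brighter probe HSP90AB1 differed by more than HSPA1L (0.50) and the HSP70 probe (0.58), so the classes did not part gene by gene. With HSPE1 and HSPD1 counted as inducible, a choice made after seeing the data, the gap was 1.34 wider at 6 h and 0.46 wider at 24 h. With HSPA1L and the HSP70 probe left out, likewise chosen after seeing the data, it was 2.24 wider at 6 h and 0.46 wider at 24 h. Without HSP70.2 and HSPB1, which were picked for high values at 6 h, it was 1.07 wider at 6 h. Without replicate 3 at 6 h, with the 7 and 2 genes, it was 1.15.

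With 75th percentile scaling the larger share of the 24 h gap lay on the constitutive side. The inducible mean at 24 h differed by 0.12 from that before feeding and the constitutive mean by -0.42. HSPA14 differed by -0.44, but the brighter HSP90AB1 probe by 0.014 and the second by -0.83. With the brightest probe of each gene the gap was 0.34 wider at 24 h. Spike-in scaling adds 1.001 to both means and leaves the gap as it is. The constitutive mean is then higher at 24 h than before feeding, so the split between the sides depends on the scaling. With the constitutive class widened to 7 genes by the mitochondrial and endoplasmic reticulum chaperones, HSPE1 and HSPD1 among them and also chosen after seeing the data, the gap was 1.87 wider at 6 h and 0.39 wider at 24 h. The score was built from members chosen with results known and gets no test.

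**Figure D4:**
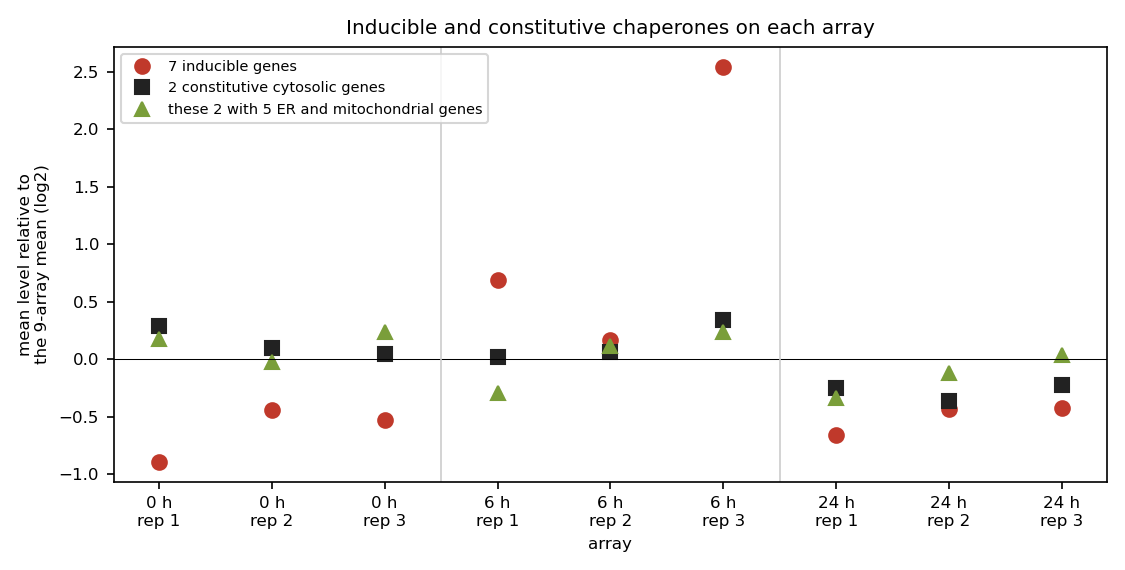
Mean level of 7 genes counted as inducible, 2 constitutive cytosolic genes and a wider set of 7 chaperones outside the inducible class on each array, on the log2 scale relative to each gene's mean over 9 arrays. The inducible mean is 2.54 on replicate 3 at 6 h and 0.17 on replicate 2, while the constitutive mean lies between -0.37 and 0.34 on all arrays.

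The spread among the 3 arrays at 6 h differed between chaperones. Between the highest and the lowest array at 6 h, HSP70.2 spanned 4.39, HSPB1 3.29, the brightest HSP90AA1 probe 3.23 and the 2 HSPH1 probes 3.27 and 2.74. The span was 1.37 for the brighter HSP90AB1 probe, 1.36 for HSP90B1, 1.24 for HSPA1L and 0.93 for HSPA5 and HSPA14, and 0.22 to 0.26 for the 3 probes of HSPE1. Replicate 3 was the highest of the 3 arrays for 13 of the 16 heat shock probes, against 37.9% of all tested probes. The full order of replicate 3 over 1 over 2 was found in 8 of 16, against 23.6% over all, and the 8 were the probes of HSP70.2, HSPB1, HSP90AA1 and TC264261 and the dimmer HSPH1 probe. HSP70.2 and HSPB1 were chosen by their 6 h values, and the probes of HSP90AA1 are not separate evidence, so nothing is read from these counts. These orders belong to the arrays at hand and were not tested.

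Marker genes of white blood cell types also had other means at 6 h, on the same arrays. Of 17 neutrophil markers 4 were measured (LTF, NCF1, MMP9 and PGLYRP1), all 4 had higher means at 6 h with a median difference of 1.84, and 0 passed in limma. At an unadjusted p under 0.05 there were 2, against 25.5% of all tested probes, or 14.7% higher. Their summed linear level was 737, 573 and 1606 at 6 h, against 177 to 370 before feeding, and 128 to 316 at 24 h. Of 13 monocyte markers 5 were tested (CD14, LGALS3, CD163, LYZ and CST3), with a median difference of 1.93 at 6 h, 0 passing and 4 at an unadjusted p under 0.05, against the same 25.5%. Their sum was 1311, 1628 and 2244 on replicates 1, 2 and 3 at 6 h, against 1071 to 1498 before feeding. In this sum replicate 1 was the lowest at 6 h, but most of the sum was CST3, which differed by 0.03 at 6 h. CST3 read 9.88, 10.39 and 10.58 on replicates 1, 2 and 3 at 6 h. The other monocyte markers tested, CD14, LGALS3, CD163 and LYZ, were each higher on replicate 1 than on replicate 2. MMP9 among the neutrophil markers was lower on replicate 1 than on replicate 2.

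Most T cell markers had lower means at 6 h. Of 16 markers 9 were tested, 8 had lower means at 6 h and 1, CD4, a difference of 0.05, with a median of -0.74, 0 passing in limma and 5 at an unadjusted p under 0.05, against 25.5% of all tested probes, or 10.9% lower. Their sum was 43.4 to 109 at 6 h, against 139 to 166 before feeding, with the lowest value on replicate 3. The tested CD4 probe was well above background on 6 of the 9 arrays, with 1 of 3 before feeding, 2 of 3 at 6 h and 3 of 3 at 24 h. In whole blood a change in the number of cells of a type cannot be told apart from a change in RNA per cell. The part of cell makeup in the HSP70.2 and HSPB1 values was not tested.

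**Figure D5:**
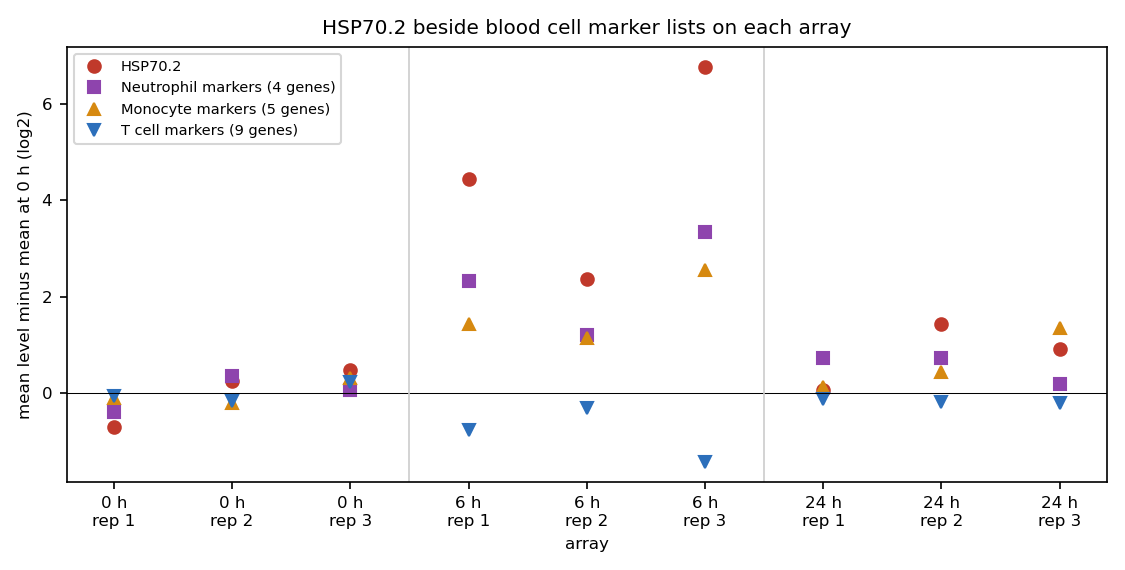
HSP70.2 and the mean levels of neutrophil, monocyte and T cell marker lists on each array, as the log2 difference from the mean before feeding. On replicates 3, 1 and 2 at 6 h, HSP70.2 and the mean log2 levels of the neutrophil and monocyte lists stand in the same order, and that of the T cell list in the opposite one. Not every marker shows the order of its list.

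The genes whose pattern was most like HSP70.2 over the 9 arrays were NCOA1, TLR2, ALOX5AP, TEC and TNFRSF1A, with Pearson r between 0.985 and 0.994 among 1177 named genes. For HSPB1 they were DGAT1, SYK, NFKB1, IL6R and CD81, with r between 0.980 and 0.993. The 9 arrays share the difference between times and the order of the 6 h replicates, so these values are a description. TLR2, a receptor for bacterial lipoproteins, read 2.74, 3.12 and 2.78 before feeding, 4.74, 3.78 and 5.93 at 6 h, and 2.79, 3.29 and 3.33 at 24 h. DGAT1, an enzyme of triglyceride synthesis, read -1.55, -0.12 and -0.51 before feeding, 1.21, -0.01 and 3.11 at 6 h, and -1.14, -0.54 and -0.80 at 24 h. Both showed the order of replicates 3, 1 and 2 at 6 h that HSP70.2 and HSPB1 had.

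Cochaperones showed small differences on the whole. Of 41 listed, 10 were tested, 7 had higher and 3 lower means at 6 h with a median of 0.26, and 0 passed in limma, with 1 at an unadjusted p under 0.05, a share below the 25.5% of all tested probes. The largest differences were those of DNAJB1, given above, and of FKBP5, an HSP90 cochaperone of steroid receptors, with 1.04 ± 0.64 (SE; limma adjusted p = 0.323). FKBP5 read 3.87 on replicate 3 at 6 h, against 1.51 and 1.24 on the other arrays of that time, and without replicate 3 its difference was 0.21. CHORDC1, an HSP90 partner, differed by 0.59 and DNAJC8 by -0.45.

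Of 14 cytosolic chaperonin and prefoldin genes 3 were tested, and their differences at 6 h were -0.18 for TCP1, -0.16 for CCT2 and 0.02 for PFDN2, with 0 passing in limma or at an unadjusted p under 0.05. HSBP1, a small protein that binds heat shock factor 1, differed by 0.28 ± 0.36 (SE; limma adjusted p = 0.643).

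Genes of the unfolded protein response of the endoplasmic reticulum divided at 6 h. Of 22 listed, 6 were tested, with 3 higher, 3 lower and 0 passing in limma at 6 h, and 1 at an unadjusted p under 0.05, against 25.5% of all tested probes. HERPUD1, which takes part in the disposal of misfolded proteins, read 7.27, 7.38 and 8.26 at 6 h, against 6.36, 7.09 and 6.71 before feeding, and differed by 0.92 ± 0.35 (SE; limma adjusted p = 0.147). Its 6 h arrays did not overlap those before feeding. ATF4, a transcription factor of the response, differed by -0.33, the transcription factor gene XBP1 by -0.30 and the calcium-binding chaperone CALR by -0.20. At 24 h all 6 had lower means than before feeding, with a median of -0.56, 0 passing in limma and 2 at an unadjusted p under 0.05, against 13.9% of all tested probes. All 6 turn to higher means under spike-in scaling, which adds 1.001 to each difference at 24 h.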

How the data were processed

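Whole blood was collected in PAXgene tubes and Cy3-labelled cRNA was hybridised to a 1-colour Agilent porcine array, per the labels' protocols. Processed spot intensity was background-subtracted and not scaled between arrays, per the file headers. These name Feature Extraction 10.5.1.1, where the submitters' processing notes name 9.5.3.1. The deposited series-wide intensity values, whose making the sources used here do not give, served as an alternative.

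Repeat spots of a probe were averaged after control and outlier spots were removed, and 7 probes without a usable spot were dropped, leaving 43596. Values were log2 processed signal minus the array's 75th percentile. A model per probe was fitted to the 9 arrays in limma 3.58.1 under R 4.3.3, with time as its term (residual degrees of freedom 6, prior 4.6) and Benjamini-Hochberg adjustment over the 19783 tested probes at 0.05. The script was tested on simulated data. A bound ("at least N-fold") divides the mean of the bright time by that of the dim time, in which an array counts with its lowest signal well above background unless the probe itself was higher.

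Gene symbols were taken from gene names, descriptions and the RefSeq table of Sscrofa11.1, which lists HSP90 as HSP90AA1 and HSPCB as HSP90AB1; 2872 probes (6.59%) have one. For a gene the brightest tested probe is given, up to 4 genes per list with the largest change at 6 h are named, and the 5 genes most like each of HSP70.2 and HSPB1 by Pearson correlation. The class means use the mean of a gene's tested probes. The probe set and lists were chosen with earlier results of these data known. Positions were not analysed here. Replicate numbers were not used as pairs in the main fit, since the labels do not say that a number marks an animal. Of the 9 correlations between same-numbered arrays' deviations from their group means, 5 were above 0.1, with a range of -0.20 to 0.64. Those between differently numbered arrays ran from -0.63 to 0.43. Whether the numbers mark pairs was not settled.

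Alternatives were quantile, median and spike-in scaling, normexp with an offset of 50, the deposited values, other filters and fits, array weights, a replicate block and leaving out each array. Plots were drawn with matplotlib 3.10.9 and files joined with pandas 2.3.3 (Python 3.11.15).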

Additional observations from a re-analysis of the deposited data

Results flagged for a closer look

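For 3 probes all 6 h arrays lay above the mean before feeding and all 24 h arrays below it. The difference between 24 h and 6 h was -1.97 for the dimmer HSPH1 probe, -1.03 for TC264261 and -2.45 for HSP90AA1 probe B. The opposite directions were not tested as such, and the limma adjusted p-values of 24 h minus 6 h were 0.132, 0.113 and 0.115. Spike-in scaling adds 1.001 to each difference between 24 h and before feeding, which turns these 3 to higher means at 24 h.

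The 4 untested probes with some signal were above background on arrays after the dose and on none before it. This call is made array by array and does not by itself mean a higher level. The share of all probes with this pattern was not counted. The dimmer HSP70.2 probe reached a level of 3.07 at 6 h and -2.60 at 24 h among arrays where it was above background. HSPA4 reached -1.22 at 6 h and -3.62 at 24 h, but read -3.72, -2.17 and -3.30 before feeding, partly above that 24 h level. TC252715, described by likeness to a bacterial regulator, reached -2.11 at 6 h and -3.26 at 24 h. Before feeding it read -3.79, -3.53 and -4.49. TC294878, described by likeness to a nematode HSP90, was above background on 1 array, with -1.75 at 6 h. Only 3, 3, 2 and 1 of the 9 arrays stand behind these probes.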

How the results depend on the processing

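The differences of HSP70.2 and HSPB1 at 6 h and of inducible minus constitutive genes at 6 h and 24 h kept their direction under all alternatives run. With an array left out they ran from 3.41 to 5.60 for HSP70.2, from 1.65 to 3.30 for HSPB1, from 1.15 to 2.20 for the class gap at 6 h and from 0.33 to 0.65 for that at 24 h. The count of heat shock probes past the adjusted threshold did change. At 6 h it was 1 of 16 with spike-in scaling, 1 with the replicate block and 12 with array weights, against 348, 620 and 9889 of all 19783 probes, and with an array left out it ran from 0 to 6. Without HSP70.2 and HSPB1, chosen by these values, these were 0, 0 and 10 of 14. Of the 12 with array weights, 8 were higher at 6 h, and the others, probes of HSPE1 and HSP90B1, were lower. At 24 h the count was 1 with spike-in scaling (HSPA1L, higher) and 2 with array weights (HSPE1 and TC264261, both lower). Of all tested probes 27.4% and 27.5% passed under these settings. With an array left out the count at 24 h was 0 to 0. For 24 h minus 6 h it was 8 with array weights, each lower at 24 h, against 29.2% of all. Without the chosen genes these were 6 of 14. With an array left out the count over the 16 probes ran from 0 to 7. Spike-in scaling moved the median of all tested probes to 0.26 at 6 h and 0.99 at 24 h, against 0.05 and -0.01. The cause of these changes was not tested. Few probes have a symbol, signal over background limits 7 probes of the set, and each time lies on 1 slide.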

Other observations

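Of 7 natural killer cell markers 3 were tested, and all had lower means at 6 h, with a median of -0.75. KLRK1, an activating receptor of these cells, read -0.42, 1.97 and -0.36 at 6 h, against 2.45, 1.64 and 3.05 before feeding, so that replicate 2 at 6 h was again the array nearest to those before feeding. Its difference was -1.98 ± 0.60 (SE, limma adjusted p = 0.1002). Platelet markers had 3 higher and 1 lower of 4 tested at 6 h, with a median of 0.32. HBE1, a haemoglobin gene, was lower at 24 h on its brighter probe, though not past the adjusted threshold and not under spike-in scaling. That probe read 6.74, 6.67 and 5.47 at 24 h against 6.97, 7.51 and 7.15 before feeding. Its second tested probe differed by -0.18 and overlapped, with 6.55, 6.54 and 4.89 at 24 h against 5.74, 6.53 and 6.24 before feeding.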
